A study of Homo sapiens with 6 samples.

Results

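The genes described here belong to NF-kB signalling and to the families that feed into it: the Rel/NF-kB transcription factors, the IkB kinase CHUK, the TRAF and MYD88 adaptors, the Toll-like receptors, the cytokine TNF and the adhesion molecule ICAM1. They were chosen by symbol, as protein-coding genes whose symbols start with TNF or NFKB, or with TRAF or TLR and a number, together with 11 further symbols, of which REL, RELA, RELB, CHUK, ICAM1 and MYD88 were measured. The rule matched 82 protein-coding genes of the RefSeq gene table, and 26 of them had a named feature on the array, out of 14884 named genes in all. A gene is called measured here if it had a named feature. Many features carried no gene name, so a gene not measured in this sense may still be on the array. The other 56, which include the TNF receptors, the TNF-family ligands beside TNF itself, the IkB inhibitors and the TNF-induced genes named TNFAIP, were not analysed here. Within the TNF superfamily the name therefore stood for TNF alone, with 7 relatives known under other symbols given further on.

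NF-kB is a family of dimeric transcription factors that wait in the cytoplasm, bound by IkB proteins, until a receptor signal activates the IkB kinase and the inhibitor is degraded. Toll-like receptors, which sense microbial lipids, proteins and nucleic acids, reach this kinase mostly through the adaptor MYD88 and the ubiquitin ligase TRAF6. Receptors of the TNF superfamily reach it through TRAF proteins. The precursor-encoding genes NFKB1 and NFKB2, together with RELB, TNF and ICAM1, are textbook targets of the pathway, so their transcripts are often read as a sign of its activity in myeloid cells.

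The 6 arrays held RNA of MOLM14, a human leukaemia cell line of the monocytic acute myeloid type, whose FLT3 internal tandem duplication and KMT2A-MLLT3 fusion all samples share. Cells of the siATF4 group (3 arrays) received a small interfering RNA against ATF4, the main transcription factor of the integrated stress response. Cells of the siCTRL group (3 arrays) received a non-targeting control pool, called scrambled in the sample names. Both were given at 70 nM by electroporation with the Neon system, and no label gives the time from transfection to harvest. The model is a single line, and the samples are labelled technical replicates, numbered 1 to 3 in both groups, so a p-value here speaks of the spread among these samples alone, and part of that spread may be technical.

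Levels are log2 array signals, and the array medians lay between 3.88 and 3.96, so members near or under 4 are dim and less certain. ATF4, the targeted gene, read 7.72, 7.88 and 8.14 with siATF4, against 8.67, 8.64 and 8.85 with siCTRL, without overlap. Of 14 myeloid markers 8 were measured. LYZ ranged over the 6 arrays from 8.33 to 10.87 and FLT3 from 8.19 to 9.67, while the monocyte receptor CD14 lay between 3.22 and 4.18, about the array median. Of the markers of other lineages, both T-cell genes measured (CD2 and CD8A) and the fibroblast gene DCN lay at 4.20 or below on every array. No B-cell or erythroid marker had a named feature, and of 5 epithelial genes KRT18 reached 7.40. The siATF4 array of number 1 stood apart in several myeloid genes: MPO, a granule enzyme, read 5.58 there and 8.45 to 10.45 on the other arrays, and the receptor gene CSF1R read 8.18 there and 5.05 to 6.57 elsewhere. In such bulk RNA, fewer cells of a kind and less RNA per cell cannot be told apart. It held the lowest value of 9 of the 26 members and the highest of another 9 (34.6% each), where it held the lowest of 23.6% and the highest of 22.8% of all named genes.

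No member separated the siATF4 from the siCTRL arrays. By limma 0 of 26 members had an adjusted p below 0.05, against 0% of all named genes, and 0 had an unadjusted p below 0.05, against 1.46%. ATF4 itself was not called, with a difference of -0.80 (SE 0.14), an unadjusted limma p of 0.00082 and an adjusted p of 0.9999. The adjusted threshold thus missed even the targeted gene. A count of 0 called members therefore does not show that siATF4 left them unchanged. With the replicate number as a block the second count was again 0, against 3.12%, and the lowest unadjusted p among members was 0.0513, for TRAF3IP3 in limma. The groups overlapped for all 26 members, and they did not overlap for 5.89% of all named genes. At such a share few of 26 genes would be counted, so the 0 does not set the members apart. The mean was lower with siATF4 for 11 members and higher for 15, so 42.3% were lower, against 46.2% of all named genes. The median difference, siATF4 minus siCTRL on the log2 scale, was 0.04 over the members and 0.01 over all named genes, and the median size of a difference was 0.15 and 0.09. The members' differences were also less precise, with a median standard error (SE) of 0.22, against 0.15 over all named genes. Without the siATF4 array of number 1 there were again 0 members called, 12 were lower and the median difference was 0.05.

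By replicate number, 2 members (RELB and TRAF3) were lower with siATF4 in all 3 numbers, against 9.20% of all named genes, and 4 (TLR4, TRAF3IP3, MYD88 and TLR5) were higher in all 3, against 14.4%. Both counts were near the share over all named genes. The plot of differences by replicate number shows that the widest spread between numbers belongs to ICAM1, TNF, NFKB2 and TLR4, and that it comes from number 1.

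**Figure D1:**
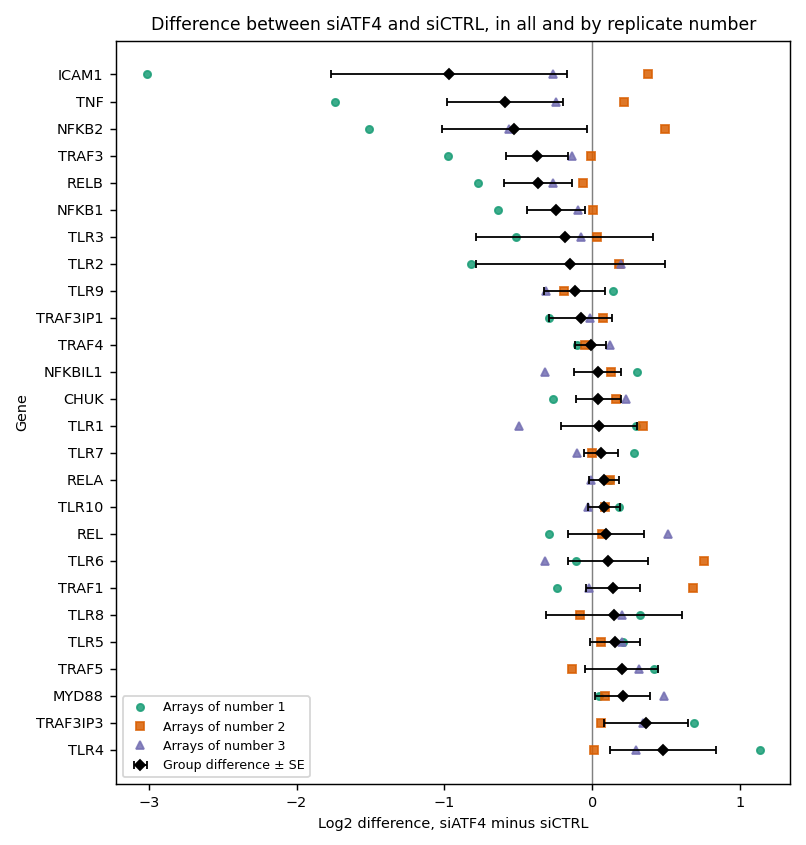
Log2 difference, siATF4 minus siCTRL (horizontal axis), for each of the 26 genes (vertical axis), as the group difference with its SE (black diamonds, 3 arrays a group) and as the difference between the arrays of each replicate number (coloured points). The ICAM1 arrays of number 1 differed by -3.01 and those of number 2 by 0.38, and most genes have points on both sides of 0.

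The 5 Rel subunits measured formed a pair with nearly level means and 3 with lower means with siATF4. RELA (p65), the subunit of the canonical heterodimer that activates transcription, read 7.11, 7.03 and 7.09 with siATF4, against 6.99, 6.91 and 7.10 with siCTRL, a difference of 0.08 (SE 0.10). All 6 of its values lay within a narrow band, and the groups overlapped. REL (c-Rel), the subunit typical of lymphoid and myeloid cells, read 8.33, 8.65 and 8.25 with siATF4, against 8.63, 8.58 and 7.74 with siCTRL, a difference of 0.09 (SE 0.26). Its lowest array was the siCTRL array of number 3, without which the difference was -0.19.

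NFKB1 encodes p105, the precursor of the p50 subunit. It read 7.42, 8.02 and 7.55 with siATF4, against 8.06, 8.02 and 7.64 with siCTRL, a difference of -0.24 (SE 0.20). NFKB2 encodes p100, the precursor of p52, which partners RELB in the non-canonical pathway. It read 5.15, 6.85 and 5.17 with siATF4, against 6.66, 6.35 and 5.73 with siCTRL, a difference of -0.53 (SE 0.49). The highest of its 6 values was on a siATF4 array, that of number 2, and the lowest was also on a siATF4 array, that of number 1. RELB read 4.75, 5.39 and 4.73 with siATF4, against 5.53, 5.46 and 4.99 with siCTRL, a difference of -0.37 (SE 0.23). The siATF4 array was below the siCTRL array of its number each time, by -0.77, -0.06 and -0.27. The exact permutation p (two-sided) was 0.3 for NFKB1, 0.4 for NFKB2 and 0.2 for RELB, where 3 arrays against 3 can give 0.1 at the lowest, and each had a limma adjusted p of 1.00.

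NF-kB binds decameric kB elements. The promoters of 3 members hold the textbook kB consensus within 250 bases before the transcription start, and they are shown because they are the members that hold it. The promoters of ICAM1, TNF and NFKB2, the 3 members with the lowest differences, hold no match to this consensus in this window. Each holds the looser form given below, with 2 matches in ICAM1, 1 in TNF and 1 in NFKB2. That form is in 53.7% of all promoters, so a match to it does not show a kB element. A missing consensus match does not show that a kB element is absent either. RELB has no promoter in the table. The 3 promoters shown come from RefSeq (GRCh38.p14), run 5′ to 3′ on the gene's strand and end at the base before the start, and capitals mark the letters that match the consensus on either strand. That of NFKB1 lies at chr4:102501109-102501358, plus strand, that of REL at chr2:60881324-60881573, plus strand, and that of TRAF3 at chr14:102777199-102777448, plus strand.
NFKB1: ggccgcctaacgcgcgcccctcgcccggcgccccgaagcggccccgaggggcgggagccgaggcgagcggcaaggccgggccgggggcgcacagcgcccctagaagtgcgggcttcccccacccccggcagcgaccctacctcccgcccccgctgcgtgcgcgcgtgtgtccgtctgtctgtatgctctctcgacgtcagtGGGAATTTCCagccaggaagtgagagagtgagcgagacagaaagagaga
REL: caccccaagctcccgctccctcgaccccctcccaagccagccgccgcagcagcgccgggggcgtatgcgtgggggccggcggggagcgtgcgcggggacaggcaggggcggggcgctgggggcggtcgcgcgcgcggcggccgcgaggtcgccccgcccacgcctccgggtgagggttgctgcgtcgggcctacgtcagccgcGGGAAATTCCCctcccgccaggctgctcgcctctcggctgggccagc
TRAF3: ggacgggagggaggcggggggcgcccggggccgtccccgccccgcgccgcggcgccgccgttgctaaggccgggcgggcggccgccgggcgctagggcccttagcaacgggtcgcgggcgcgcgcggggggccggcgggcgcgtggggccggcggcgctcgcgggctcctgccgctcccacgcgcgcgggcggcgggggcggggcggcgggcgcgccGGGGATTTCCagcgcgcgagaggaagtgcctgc

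The match began 49 bases before the start in NFKB1, 47 bases in REL and 33 bases in TRAF3, and in REL overlapping matches lay on both strands. Of 22 members with a promoter in the table (all but RELB, TLR1, TLR7 and TLR10, taking the first start listed for a gene), 3 held the consensus (13.6%), against 5.05% of 27305 promoters of the same length. A looser form, GGG followed after any 5 bases by CC and searched on both strands, was in 13 of 22 (59.1%), against 53.7% of all promoters. The form TGATGNAAN, which resembles the composite element that ATF4 shares with C/EBP proteins, was in 0 of 22, against 3.18% of all. A match describes the letters only, and the consensus was added after the data had been seen.

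The members with the lowest differences were ICAM1, TNF, NFKB2, TRAF3, RELB and NFKB1. ICAM1, the endothelial and leukocyte adhesion ligand of integrins, read 5.44, 8.33 and 6.27 with siATF4, against 8.45, 7.96 and 6.54 with siCTRL. The siATF4 arrays thus held the lowest value and, on the array of number 2, one higher than those of siCTRL numbers 2 and 3. The difference was -0.97 (SE 0.80), with an unadjusted limma p of 0.267, an adjusted p of 1.00 and an exact permutation p (two-sided) of 0.4. Without both arrays of number 1 it was 0.05, and without both of number 2 it was -1.64.

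TNF, the founding cytokine of its superfamily, read 7.87, 8.42 and 7.96 with siATF4, against 9.61, 8.21 and 8.20 with siCTRL. One array, siCTRL of number 1, stood above the other 5, which lay between 7.87 and 8.42. The difference was -0.59 (SE 0.39, exact permutation p, two-sided, 0.3), and it was -0.12 without that array. TNF had 8 features, of which 7 held the same values and the last differed by -0.67.

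TRAF3, an adaptor that restrains the non-canonical pathway by directing the degradation of the kinase NIK, read 5.87, 6.59 and 6.25 with siATF4, against 6.85, 6.60 and 6.39 with siCTRL, a difference of -0.37 (SE 0.21). It had the lowest unadjusted limma p of the 26 members, 0.122, with an adjusted p of 1.00. The siATF4 array was lower in every number, by -0.98, -0.01 and -0.14, so most of the difference was in number 1 and the groups overlapped.

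Of these 6 genes, all but RELB had their lowest value on the siATF4 array of number 1, and all but NFKB2 had their highest on the siCTRL array of number 1. The pairs of number 1 differed by -3.01 (ICAM1), -1.74 (TNF), -1.51 (NFKB2), -0.98 (TRAF3), -0.77 (RELB) and -0.64 (NFKB1). In number 2 the same genes differed by 0.38, 0.21, 0.49, -0.01, -0.06 and 0.00, and in number 3 by -0.27, -0.24, -0.56, -0.14, -0.27 and -0.10. Without both arrays of number 1 the 6 differences lay between -0.17 (RELB) and 0.05 (ICAM1).

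Type I interferon genes varied over the same arrays. The mean of the 18 genes measured, from a list of 26 symbols, was 4.76, 5.91 and 4.96 with siATF4, against 6.67, 5.78 and 4.96 with siCTRL. All 18 had their highest value on the siCTRL array of number 1, which held the highest of 13.6% of all named genes. All 18 had a lower mean with siATF4, with a median difference of -0.61, and 0 passed limma at an adjusted or an unadjusted p below 0.05, with IFITM1 at -1.31 (SE 0.91), IFIT1 at -1.06 (SE 0.70) and IFI44L at -0.94 (SE 0.93). IFITM1 rested on the siATF4 array of number 1, which read 4.44 where the other 5 read 7.86 to 8.29, and it differed by -0.13 without that array. The mean of the 8 myeloid markers was 8.31, 8.33 and 7.67 with siATF4, against 8.53, 8.26 and 7.63 with siCTRL. The part of either in the NF-kB values was not tested. The array-by-array plot of these genes sets the 6 members beside both lists.

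**Figure D2:**
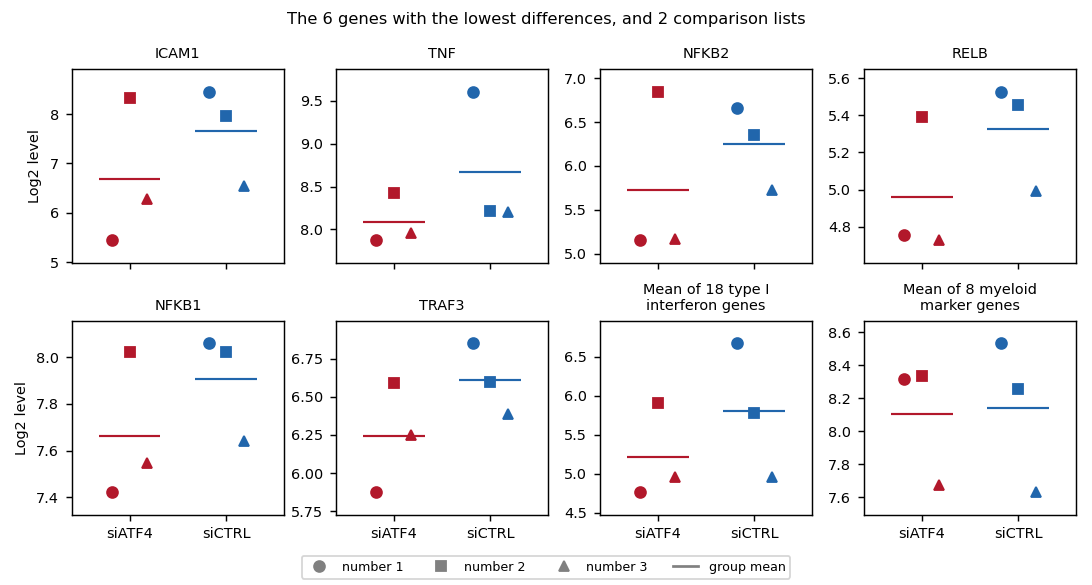
Log2 level (vertical axes, each with its own scale) of the 6 members with the lowest differences and the mean level of the type I interferon and myeloid marker lists, on the siATF4 (red) and siCTRL (blue) arrays, with replicate numbers as symbols and group means as lines. ICAM1 read 5.44 on the siATF4 array of number 1 and 8.45 on the siCTRL array of number 1, and in every panel the groups overlap.

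CHUK, the IKK-alpha catalytic subunit of the IkB kinase and the one member of that complex measured, read 6.90, 7.19 and 7.42 with siATF4, against 7.16, 7.03 and 7.20 with siCTRL, a difference of 0.04 (SE 0.15). The siATF4 arrays held both its lowest and its highest value. MYD88, the adaptor of most Toll-like receptors and of the interleukin-1 receptor, read 6.89, 6.81 and 6.68 with siATF4, against 6.84, 6.72 and 6.19 with siCTRL. It was higher with siATF4 in every number, by 0.05, 0.08 and 0.48, and the difference of 0.20 (SE 0.19) came to 0.01 without the siCTRL array of number 3.

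The other TRAF genes measured were TRAF1, TRAF4 and TRAF5. TRAF1, which joins TRAF2 at TNF receptors and is itself an NF-kB target, lay between 3.86 and 4.47 with siATF4 and between 3.79 and 4.10 with siCTRL (difference 0.14, SE 0.18). TRAF4 ranged from 4.43 to 4.64 with siATF4 and from 4.53 to 4.60 with siCTRL (-0.01, SE 0.10), turning to 0.0022 with equal array medians. TRAF5, an adaptor of TNF-family receptors on lymphocytes, ranged from 3.48 to 4.12 with siATF4 and from 3.09 to 3.81 with siCTRL (0.20, SE 0.25). In all 3 the groups overlapped.

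All 10 Toll-like receptor genes had a named feature. Of these 3 were lower and 7 higher with siATF4, with a median difference of 0.07, and none passed limma at an adjusted or an unadjusted p below 0.05. TLR4, the receptor for bacterial lipopolysaccharide, had the highest difference of the 26 members. It read 6.06, 5.27 and 6.30 with siATF4, against 4.93, 5.25 and 6.01 with siCTRL, higher with siATF4 in every number by 1.13, 0.01 and 0.29. The difference was 0.48 (SE 0.36, exact permutation p, two-sided, 0.2), with an adjusted limma p of 1.00, and it was 0.15 without both arrays of number 1. Of its co-receptors, LY96 (MD-2) differed by 0.26 (SE 0.29), and by -0.06 without the siATF4 array of number 1. CD14 differed by -0.15 (SE 0.24), and by 0.10 without the siCTRL array of number 1.

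TLR2, which senses bacterial lipoproteins together with TLR1 or TLR6, read 6.77, 7.04 and 5.50 with siATF4, against 7.59, 6.86 and 5.31 with siCTRL. Both arrays of number 3 were lowest, whichever siRNA the cells had received, and the group difference was -0.15 (SE 0.64). TLR8, an endosomal receptor for single-stranded RNA, read 4.76, 3.85 and 3.28 with siATF4, against 4.43, 3.93 and 3.08 with siCTRL, again lowest in number 3, with a group difference of 0.15 (SE 0.46). TLR3, which senses double-stranded RNA, ran the other way: it read 3.25, 3.86 and 5.23 with siATF4, against 3.77, 3.82 and 5.31 with siCTRL. Its number 3 arrays were the highest in both groups, and the group difference was -0.19 (SE 0.60).

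TLR1 lay between 4.46 and 5.44 with siATF4 and between 4.74 and 5.15 with siCTRL (0.05, SE 0.26). TLR6 lay between 5.44 and 5.56 with siATF4 and between 4.77 and 5.88 with siCTRL (0.11, SE 0.27), the 3 siATF4 values falling inside the siCTRL range. TLR9, the receptor for unmethylated CpG DNA, ranged from 4.09 to 4.76 with siATF4 and from 4.28 to 4.74 with siCTRL (-0.12, SE 0.21). TLR5, the flagellin receptor, was higher with siATF4 in every number, by 0.21, 0.06 and 0.20, at levels of 3.65 to 4.04 with siATF4, against 3.45 to 3.91 with siCTRL (0.16, SE 0.17). TLR7 (3.19 to 3.38 with siATF4, against 3.10 to 3.31 with siCTRL) and TLR10 (3.35 to 3.56 with siATF4, against 3.37 to 3.47 with siCTRL) were below every array median, with differences of 0.06 and 0.08.

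**Figure D3:**
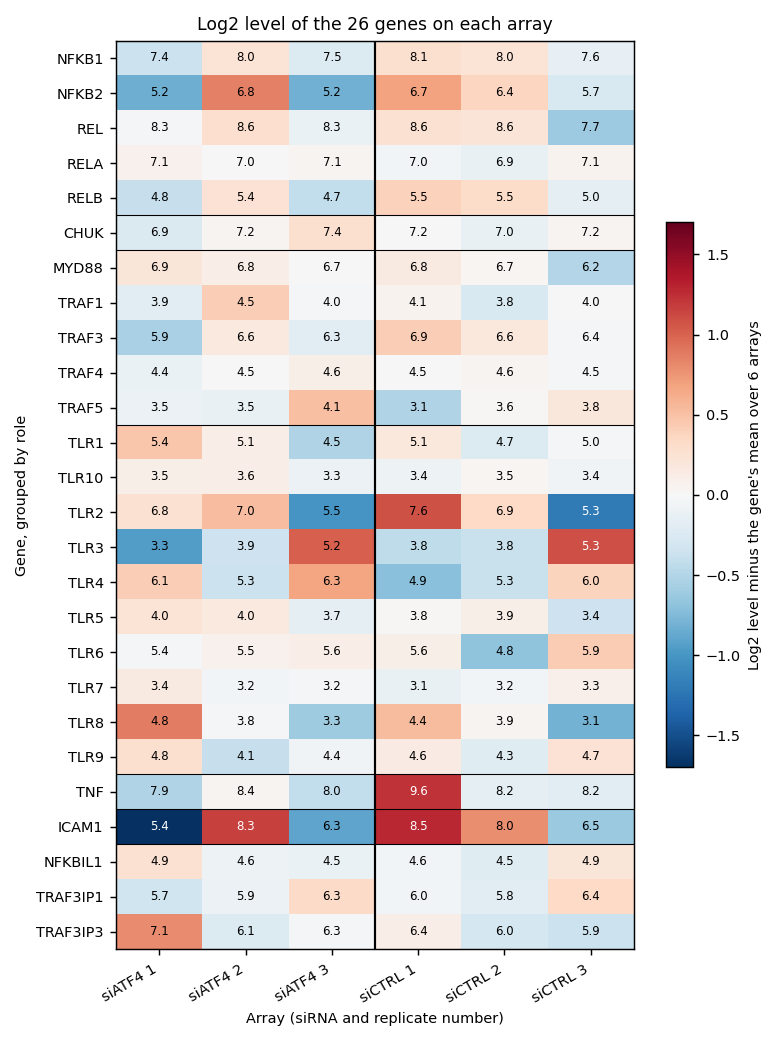
Log2 level of each of the 26 genes (rows, grouped by role) on each array (columns, siATF4 left and siCTRL right), printed in the cells and coloured by its distance from the gene's mean over the 6 arrays. TLR2 and TLR8 are lowest and TLR3 highest in the columns of number 3 in both groups, while ICAM1 and NFKB2 are below their means on siATF4 numbers 1 and 3 and on siCTRL number 3.

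Several members thus followed the replicate number more than the siRNA. For 25 of 26 members (96.2%) the range of the 3 replicate-number means was larger than the difference between siATF4 and siCTRL, against 85.8% of all named genes, TRAF3 being the exception with a range of 0.28. A range over 3 means tends to exceed a difference between 2, so the share over all genes is the one to read it against. The median range was 0.54 over the members and 0.25 over all named genes, with TLR2 (1.78), TLR3 (1.76), ICAM1 (1.74) and TLR8 (1.42) highest. ICAM1 did not follow the number in both groups. Its arrays of number 1 held both its lowest value (5.44 with siATF4) and its highest (8.45 with siCTRL). A limma F test of the replicate number, with the siRNA in the same fit and added after the data had been seen, gave an adjusted p below 0.05 for 2 members, TLR3 (0.0381) and TLR8 (0.0490), against 0.894% of all named genes, while TLR2 was at 0.0756. At an unadjusted p below 0.05 there were 9 members, against 16.5%. TLR3 and TLR8 were dim on part of the arrays. TLR3 read 3.86 or below outside number 3, and TLR8 read 3.28 with siATF4 and 3.08 with siCTRL in number 3. The mean of the myeloid marker list was lowest in number 3, 7.67 with siATF4, against 7.63 with siCTRL. Of its 8 genes, 3 had their lowest value on the siATF4 array of number 3 and 3 on the siCTRL array of number 3. MPO went the other way and was highest in number 3 in both groups (10.45 with siATF4, 10.17 with siCTRL). The part of this list was not tested.

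**Figure D4:**
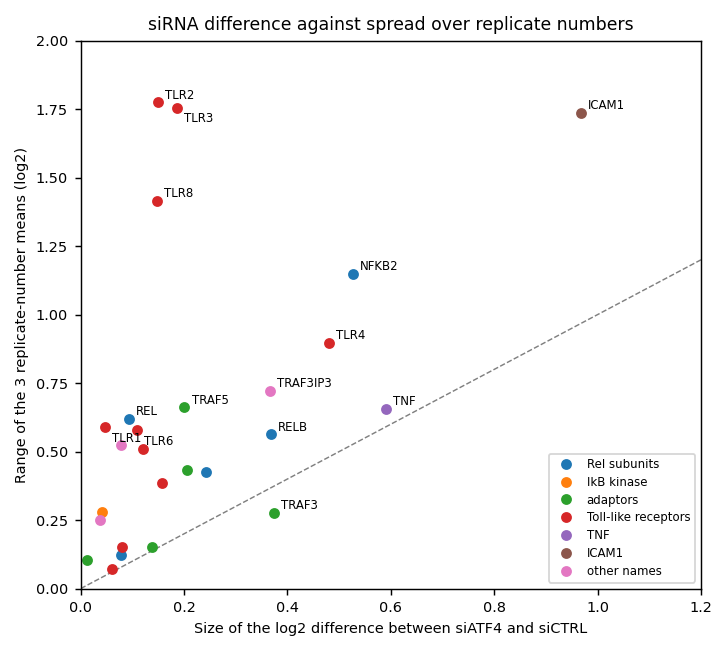
Range of the 3 replicate-number means (vertical axis, log2) against the size of the log2 difference between siATF4 and siCTRL (horizontal axis) for the 26 genes, coloured by role, with the line of equality dashed. Every gene but TRAF3 lies above the line, and TLR2, TLR3 and TLR8 reach ranges of 1.42 to 1.78 at siRNA differences under 0.2.

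The symbols also drew in 3 genes that are neither receptors nor TRAF proteins. TRAF3IP3, a membrane-bound partner of TRAF3 found in lymphoid and myeloid cells, read 7.11, 6.08 and 6.29 with siATF4, against 6.42, 6.01 and 5.95 with siCTRL. It was higher with siATF4 in every number, by 0.69, 0.06 and 0.35, a difference of 0.37 (SE 0.28) that came to 0.06 without the siATF4 array of number 1. TRAF3IP1, a component of intraflagellar transport, ranged from 5.68 to 6.34 with siATF4 and from 5.84 to 6.36 with siCTRL (-0.08, SE 0.21). NFKBIL1, an IkB-like gene of the major histocompatibility region, ranged from 4.54 to 4.91 with siATF4 and from 4.45 to 4.86 with siCTRL (0.04, SE 0.16).

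Genes of the same pathways outside the naming rule gave a like picture. Of 12 TNF-superfamily genes under other symbols 7 were measured, 4 lower and 3 higher, and 0 passed limma at an adjusted or an unadjusted p below 0.05. CD70, the ligand of CD27, read 9.20, 9.96 and 8.42 with siATF4, against 10.17, 9.71 and 8.29 with siCTRL (-0.20, SE 0.56), lowest in number 3 in both groups. EDA2R, the ectodysplasin receptor XEDAR, read 7.09, 4.30 and 3.80 with siATF4, against 4.21, 4.27 and 3.76 with siCTRL, so its difference of 0.98 (SE 0.80) rested on 1 array and was -0.03 without it. RELT was at -0.10 (SE 0.14).

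Of 39 other components of Toll and NF-kB signalling 31 were measured, 17 lower and 14 higher with a median of -0.03. None had an adjusted p below 0.05 in limma and 1 had an unadjusted p below 0.05. That gene was TAB2, an adaptor of the kinase TAK1, named after its values were seen. It averaged 7.22 ± 0.14 with siATF4, against 6.93 ± 0.09 with siCTRL (SD, n = 3 arrays each), a difference of 0.29 (SE 0.12) with all siATF4 arrays above all siCTRL arrays; 1.46% of all named genes had an unadjusted p below 0.05. TBK1, the kinase that phosphorylates IRF3 and also named after its values were seen, lay below siCTRL on all siATF4 arrays (-0.21, SE 0.11). The groups did not overlap for these 2 of 31 genes, a share near the 5.89% of all named genes. By the naming rule the largest differences in this list were those of RIPK3, the necroptosis kinase (0.37, SE 0.51), of IRAK2 (-0.31, SE 0.52) and of IRAK3, an inhibitor of Toll signalling (-0.31, SE 0.48), and in these the groups overlapped.

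Of 30 other NF-kB target genes 21 were measured, 13 lower and 8 higher, with a median difference of -0.14 and 0 past limma at an adjusted or an unadjusted p below 0.05. CCL5 had the lowest unadjusted limma p, 0.0939, and was higher with siATF4 (0.35, SE 0.18). The groups did not overlap for VCAM1 alone, against 5.89% of all named genes. It was also higher (0.10, SE 0.10), but below every array median. Both were named after their values were seen. In all 3 numbers 4 genes were higher and 1 lower, against 14.4% and 9.20% of all named genes. The genes described next had the largest differences, all lower. The chemokine gene CXCL10 read 3.16, 8.34 and 3.63 with siATF4, against 9.73, 8.79 and 3.63 with siCTRL, a difference of -2.34 (SE 1.94). It was high on 3 arrays, siATF4 of number 2 and siCTRL of numbers 1 and 2, and below the array median on the other 3. The mean of the type I interferon list was highest on the same 3 arrays (5.91, 6.67 and 5.78). The part of interferon or of NF-kB in the CXCL10 values was not tested. BCL2A1, an anti-apoptotic BCL2 relative, read 4.69, 5.73 and 4.92 with siATF4, against 7.07, 6.05 and 4.98 with siCTRL (-0.92, SE 0.53), with its highest value on the siCTRL array of number 1, as for TNF. CXCL8 read 5.89, 8.46 and 8.37 with siATF4, against 8.43, 7.63 and 8.47 with siCTRL (-0.60, SE 0.69), lowest on siATF4 number 1. Of these 21 genes 8 had their highest value on the siCTRL array of number 1 and 9 their lowest on the siATF4 array of number 1 (38.1% and 42.9%), against 13.6% and 23.6% of all named genes.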

How the data were processed

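Total RNA (100 ng) was labelled with an Affymetrix GeneChip kit, per the labels' protocols. Deposited values, 1 per feature (53617) and array (6), were read as log2. The authors processed them with Partek, per the submitters' processing notes; background correction, normalization method and log base are not given in the sources used here. No column was left unmapped.

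A single gene symbol belonged to 16098 features, several to 0 and none to 37519, which are left out of the named genes. All 16098 identifiers matched the GRCh38.p14 gene table, which changed 0 symbols. The brightest feature stood for a gene.

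limma 3.58.1 (R 4.3.3, lmFit, eBayes, group as the only term) was fitted to 14884 genes with Benjamini-Hochberg adjustment and a threshold of 0.05. The code was also run on simulated data with independent noise on each array. Those data lacked the correlation between same-numbered arrays given below, so the run does not show how limma performs on the present arrays. Differences are siATF4 minus siCTRL; SE is moderated. The number of arrays limits the precision. Deviations from group means correlated between same-numbered arrays (r = 0.20, 0.40 and 0.62), so a fit with the number as a block was added, from the data and not from the labels; siATF4 number 2 also correlated with siCTRL number 1 (0.48).

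The members, lists and naming rule were chosen with earlier results of these data known. Named were ATF4, the members of largest difference, the brightest, a fixed set, and the 3 largest differences of each list; as there were only 26, all members are given. Alternatives were equal array medians, quantile normalization, array weights, the replicate block, a trended and robust prior, a filter on the dimmest 33%, the mean of all features, all features tested, an adjusted threshold of 0.01, and each array or replicate number left out. The F test of the replicate number and the kB consensus were added after seeing the data.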

Additional observations from a re-analysis of the deposited data

How the results depend on the processing

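No member was called under any alternative, the replicate block included (0 called, lowest member adjusted p 0.999 in limma), nor with all features tested or at an adjusted threshold of 0.01. ATF4 was not called with the replicate block either (adjusted p 0.9993 in limma). The count of lower members, 11 of 26, was 10 or 11 under the other scalings and fits and 10 to 15 with arrays left out. The median difference of 0.04 ran from -0.052 without replicate number 2 to 0.077 without siATF4 replicate 3. The 11 members that kept their sign under all alternatives run were TNF, NFKB2, TRAF3, RELB, NFKB1, RELA, TLR10, TLR5, MYD88, TRAF3IP3 and TLR4.

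With all arrays, array weights turned the difference of TLR1 to -0.0028, TLR3 to 0.053, TLR8 to -0.22 and TRAF4 to 4.273e-05, and equal array medians turned TRAF4 to 0.0022. The difference turned sign for 15 members with 1 array or 1 replicate number left out, with the lowest and highest values as follows: CHUK -0.085 to 0.19, ICAM1 -1.79 to 0.054, NFKBIL1 -0.097 to 0.21, REL -0.19 to 0.29, TLR1 -0.18 to 0.32, TLR2 -0.79 to 0.35, TLR3 -0.74 to 0.32, TLR6 -0.22 to 0.35, TLR7 -0.052 to 0.14, TLR8 -0.25 to 0.49, TLR9 -0.29 to 0.049, TRAF1 -0.13 to 0.33, TRAF3IP1 -0.26 to 0.072, TRAF4 -0.076 to 0.043 and TRAF5 -0.0081 to 0.37. For genes outside the rule the same ranges were EDA2R -0.034 to 1.61, CD70 -0.75 to 0.19, RELT -0.22 to 0.017, RIPK3 -0.069 to 0.86, IRAK2 -0.76 to 0.11, IRAK3 -0.76 to 0.16, CXCL8 -1.32 to 0.36, IFIT1 -1.67 to 0.000165 and IFI44L -1.89 to 0.022. The cause was not tested. Signal over background was not analysed here. Members near or below the array median are therefore less certain, among them TLR3 outside number 3, TLR5, TLR7, TLR8, TLR10, TRAF1 and TRAF5.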
